A study of Homo sapiens with 6 samples.

Results

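The genes described here are 52 genes of mitosis, the kinetochore and condensin, listed by symbol and role, all of them found among the 30017 genes of the count table. They fall into 5 roles: 9 mitotic kinases, cyclins and their regulators, 17 genes of the kinetochore and the spindle checkpoint, 11 kinesins and spindle genes, 8 genes of condensin and the mitotic chromosome, and 7 genes of cytokinesis. RNA-seq was performed in BLaER subclone CTCF-AID, a derivative of a B cell leukemia line that converts to induced macrophages when an estradiol-driven CEBPA is activated in the presence of IL-3 and CSF-1. Cells of all 3 groups carry the CTCF degron, a tag that marks the CTCF protein for degradation when auxin is added. The groups are cells before differentiation (0 h, untreated), cells 96 h after induction without auxin (96 h control) and cells 96 h after induction with auxin (96 h CTCF-depleted), with 2 biological replicates each. According to the paper, auxin was added together with the differentiation factors. Both 96 h groups are therefore parallel arms from 0 h, and CTCF-depleted cells did not pass through the 96 h control state. Cells without the degron that received auxin are not among these libraries, and the line is 1 clone, so that effects of auxin and of CTCF loss cannot be told apart, and neither can effects particular to this clone.

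Dividing cells make most of these proteins only as they approach mitosis. Cyclin B with CDK1, Aurora and Polo-like kinases drive entry into mitosis, condensin and topoisomerase II compact and disentangle the chromosomes, and the kinetochore ties each centromere to spindle microtubules while the checkpoint holds back anaphase. Anaphase starts when CDC20 switches on the anaphase-promoting complex, which marks cyclin B and securin for destruction, and centralspindlin and the anillin ring then divide the cell. Transcription of these genes is known to depend on FOXM1 and on the MuvB complex with B-MYB, which acts at a promoter element called CHR, together with NF-Y at CCAAT boxes. Cells that leave the cycle, as macrophages do, are known to shut this program down.

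The total count ranged from 9273470 to 12718780 per library, and the counts of replicates differed by more than sampling noise, so that each library was kept as a separate sample. CTCF itself, whose protein is the target of the degron, had 2235 and 2849 counts at 0 h, 2048 and 1875 in control and 2062 and 2051 in CTCF-depleted libraries, and these transcript counts do not measure the protein. The labelled cell change was visible in marker genes. The summed level of 8 B cell markers was 2432 and 2447 CPM (counts relative to library size, with TMM scaling) at 0 h, 421 and 430 CPM in control and 439 and 452 CPM in CTCF-depleted libraries, and all 8 were lower at 96 h. The summed level of 8 macrophage markers was 108 and 96.6 CPM at 0 h, 6479 and 6261 CPM in control and 5647 and 5609 CPM in CTCF-depleted libraries. Between the 96 h groups, 1 B cell marker (VPREB1) and 2 macrophage markers (MRC1 and CTSB) were lower in CTCF-depleted cells, and 1 of each list (CD22 and ITGAM) was higher. The summed level of 6 T and NK cell markers was 2.58 and 2.93 CPM at 0 h, 38.6 and 38.1 CPM in control and 32.7 and 34.6 CPM in CTCF-depleted libraries. That of 6 erythroid and megakaryocyte markers was 2.06 and 1.58 CPM at 0 h, 10.7 and 7.69 CPM in control and 11.1 and 10.1 CPM in CTCF-depleted libraries. Of these markers CD2, NKG7 and ITGA2B had enough counts to be tested, and all 3 were higher in control cells than at 0 h and not called between the 96 h groups, while the defining markers CD3D, CD3E and HBB had 0 or 1 counts. The part of these cell type markers in the results below was not tested.

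All 52 genes were detected in every library, with 74 to 14119 counts, and all of them passed the filter on low counts that left 14758 genes for testing. Together they took 0.870 and 0.890% of all counts at 0 h, 0.532 and 0.545% in control and 0.351 and 0.350% in CTCF-depleted libraries. Their summed level was 8326 and 8486 CPM at 0 h, 5486 and 5683 CPM in control and 3580 and 3521 CPM in CTCF-depleted libraries. The 3 groups did not overlap in this sum, which was lower in control than at 0 h and lower still in CTCF-depleted libraries. Below, the 2 "steps" are comparisons: control against 0 h (differentiation) and CTCF-depleted against control (CTCF depletion). "Over both steps" is CTCF-depleted against 0 h. The word "then" gives the order of these comparisons and not of events in time. Fewer cells in division and less of these RNAs in each dividing cell cannot be told apart in bulk RNA.

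Calls required an adjusted p below 0.01 in edgeR's quasi-likelihood test, with Benjamini-Hochberg adjustment over all genes tested, together with a log2 fold change beyond 0.6 in either direction, and "rose" and "fell" are used for such genes only. In control cells at 96 h compared to 0 h, 33 of the 52 genes fell, against 22.9% of all genes tested, and 1 gene, ANLN, rose, against 25.4%. In CTCF-depleted compared to control cells, 40 of the 52 fell, against 7.03% of all genes, and 0 rose, against 5.41%. In CTCF-depleted cells compared to 0 h, 50 fell, against 25.2%, and 0 rose, against 27.2%. In both comparisons with 0 genes called higher, edgeR and DESeq2 also gave 0 genes with a higher level at an unadjusted p below 0.05.

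The median log2 fold change of the 52 genes was -0.67 with differentiation, compared to 0.02 over all genes, and the values ranged from -1.39 for MAD2L1 to 0.61 for ANLN. With CTCF depletion the median was -0.70, compared to -0.03 over all genes. The range of this comparison was narrower, from -0.97 for CDC25C to -0.30 for INCENP, which corresponds to levels that were 48.8 to 18.7% below control. All 52 genes had a lower level in both CTCF-depleted libraries than in both control libraries, a pattern seen in 37.8% of all genes tested. With 2 libraries a group, groups without overlap in either direction were common. They were seen in 86.7% of all genes tested with differentiation and in 67.9% with CTCF depletion. All 52 also passed the adjusted p-value threshold with CTCF depletion. Of the 14758 genes tested, 2569 passed it with a lower level and 1772 with a higher one. The largest adjusted p of the 52 was 0.00245 (CDCA3, edgeR's quasi-likelihood test, Benjamini-Hochberg adjustment). The 12 genes that were not called therefore missed only the fold change threshold. At an absolute log2 fold change above 1, 0 of the 52 passed. The comparisons share libraries: control cells enter the first and the second, with opposite sign, so that their values are given side by side and not correlated.

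**Figure D1:**
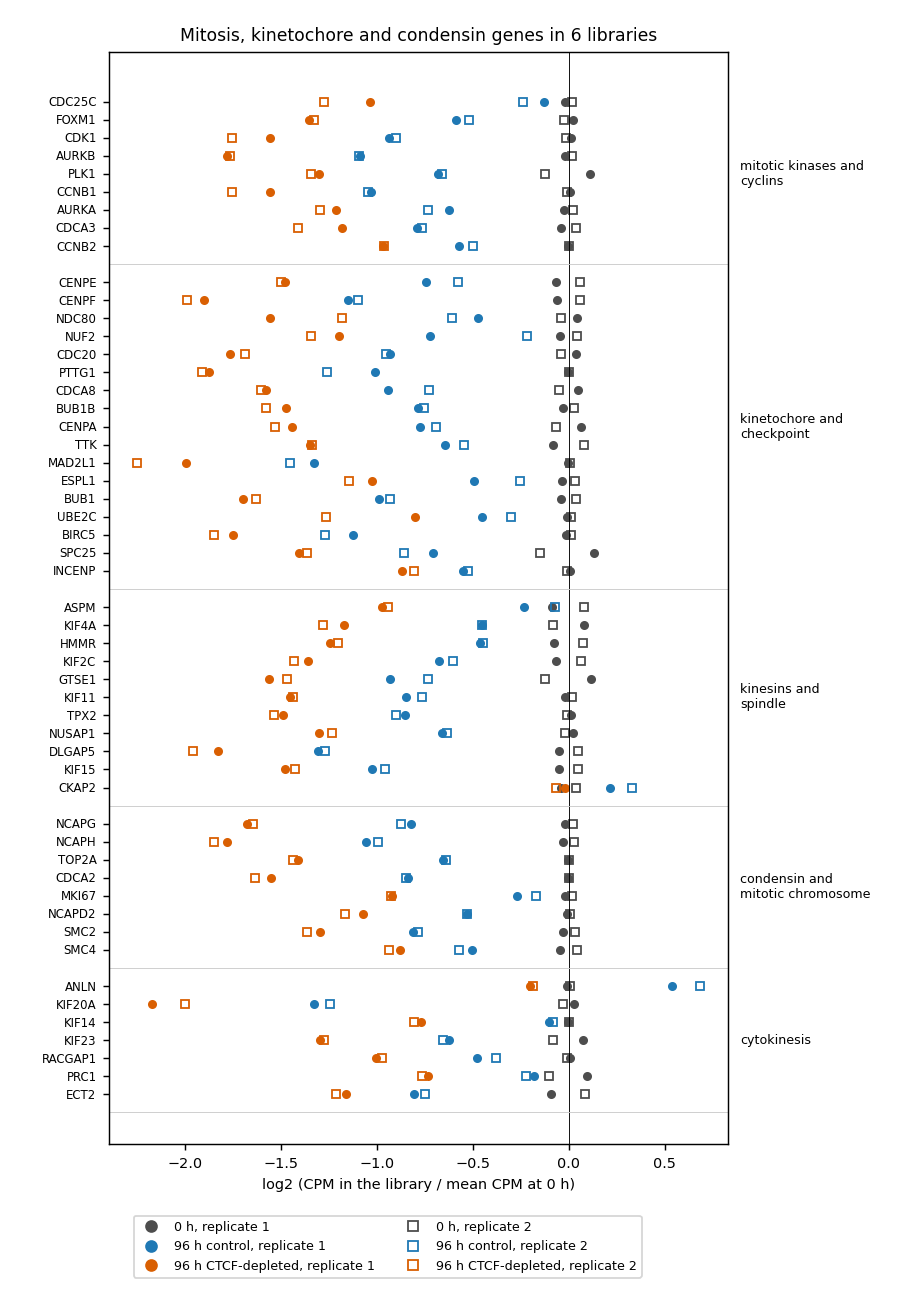
Level of each of the 52 genes in each of the 6 libraries, as log2 of the CPM relative to the mean CPM at 0 h (x axis), by role. Filled circles are replicate 1 and open squares replicate 2; CTCF-depleted libraries (orange) lie to the left of control libraries (blue) for all 52 genes, and ANLN and CKAP2 are the only genes whose control libraries lie to the right of 0.

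Sorted by both steps, 28 genes fell with differentiation and also with CTCF depletion. Another 12 were not lower by these thresholds in control cells and fell with CTCF depletion: CDC25C, FOXM1, NDC80, NUF2, ESPL1, UBE2C, ASPM, KIF4A, HMMR, MKI67, ANLN and KIF14. A further 5 genes, AURKA, CDCA3, KIF15, SMC2 and ECT2, fell with differentiation only. The remaining 7, CCNB2, INCENP, CKAP2, SMC4, NCAPD2, RACGAP1 and PRC1, were called in neither step. Being called in 1 step and not in the other does not show that the steps differ, and the difference between the steps was not tested.

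**Figure D2:**
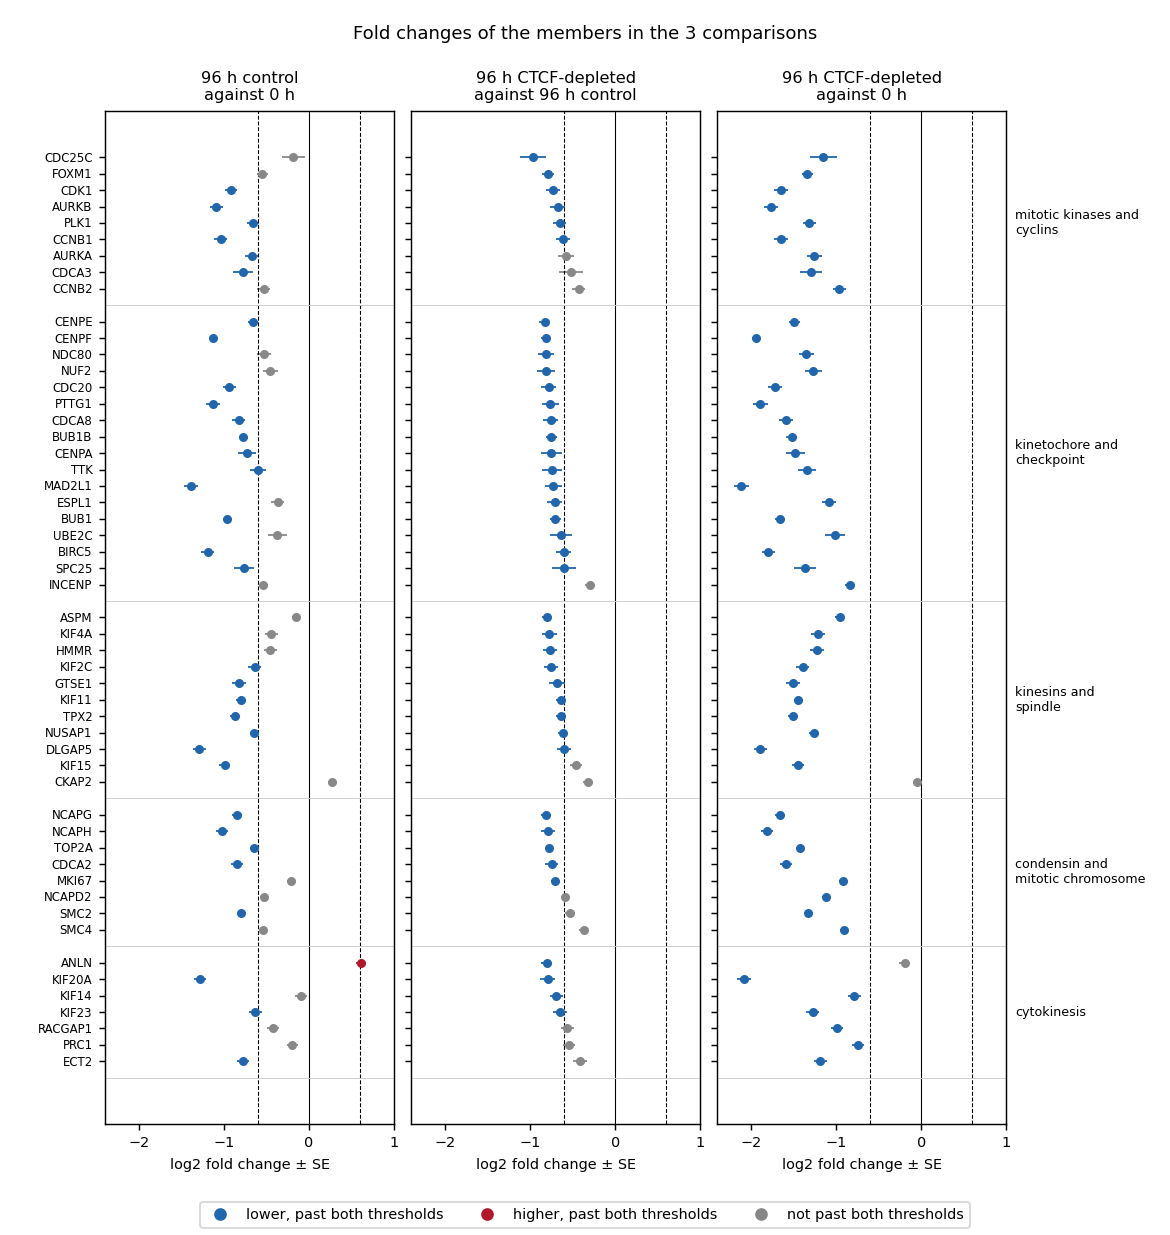
Log2 fold change with its standard error (x axis) of each of the 52 genes in the 3 comparisons, by role and in the order of the middle panel. Dashed lines mark the fold change threshold; in the middle panel all 52 points lie between -0.97 and -0.30, and in the left panel they spread from -1.39 to 0.61.

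Among the mitotic kinases, cyclins and regulators, 6 of 9 fell with differentiation (median log2 fold change -0.68), 6 of 9 fell with CTCF depletion (median -0.65) and 9 of 9 fell over both steps (median -1.32). For this and the other roles below, the shares of all genes tested that fell were 22.9, 7.03 and 25.2%. CDC25C, the phosphatase that activates CDK1 at mitotic entry, had the largest change of all 52 genes with CTCF depletion. It was also the least abundant of them per kilobase of transcript, with 7.89 CPM per kb at 0 h. Its level was 16.3 and 16.7 CPM at 0 h, 15.1 and 14.0 CPM in control and 8.06 and 6.82 CPM in CTCF-depleted libraries. The 0 h and control libraries lay close together and the CTCF-depleted libraries well below both. The log2 fold change with differentiation was -0.18 (SE 0.14), which was not called. With CTCF depletion it was -0.97 (SE 0.16, adjusted p = 1.04e-06, edgeR's quasi-likelihood test with Benjamini-Hochberg adjustment). In CDC25C, 8.80% of the exonic bases overlap exons of FAM53C on the other strand. FAM53C had 743 to 1146 counts per library, against 74 to 223 for CDC25C, and the part of this overlap was not tested.

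AURKB, the kinase of the chromosomal passenger complex, had the largest change of this role with differentiation. It had 95.2 and 97.6 CPM at 0 h, 45.3 and 45.1 CPM in control and 28.1 and 28.4 CPM in CTCF-depleted libraries, log2 fold changes of -1.09 (SE 0.07) and -0.68 (SE 0.09) in the 2 steps. FOXM1, a transcription factor of G2 and M phase genes and so both a member and a regulator of this program, had 153 and 147 CPM at 0 h, 99.9 and 105 CPM in control and 58.6 and 59.7 CPM in CTCF-depleted libraries. Its log2 fold change was -0.55 (SE 0.06) with differentiation, short of the threshold with all libraries and past it without the second 0 h library (-0.62), and -0.79 (SE 0.07) with CTCF depletion. Neither gene's groups overlapped.

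CDK1, the kinase at the centre of mitotic entry, fell in both steps, by 0.92 and 0.73 on the log2 scale, and so did PLK1, by 0.67 and 0.65. CCNB1, the main cyclin B, fell by 1.04 with differentiation and by 0.61 with CTCF depletion. That second value is close to the threshold, and leaving out any 1 of 5 of the 6 libraries moved it to between -0.49 and -0.59, where it was not called; it was called without the first CTCF-depleted library. Without the first 0 h library, PLK1 had -0.56 with differentiation and lost that call. CCNB2, the other cyclin B, changed least in this role with CTCF depletion, with 81.2 and 81.5 CPM at 0 h, 54.6 and 57.6 CPM in control and 41.6 CPM in both CTCF-depleted libraries (log2 fold change -0.43, SE 0.08). AURKA, the centrosomal Aurora kinase (-0.58), and CDCA3, a trigger of mitotic entry (-0.52), also missed the fold change threshold with CTCF depletion; without the second control library AURKA just passed it at -0.60.

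Among the kinetochore and checkpoint genes, 12 of 17 fell with differentiation (median log2 fold change -0.77), 16 of 17 fell with CTCF depletion (median -0.75) and 17 of 17 fell over both steps (median -1.49). CENPF, a large protein of the outer kinetochore, had 451 and 489 CPM at 0 h, 211 and 219 CPM in control and 126 and 118 CPM in CTCF-depleted libraries. CENPE, the kinesin that moves chromosomes to the spindle equator, had 210 and 229 CPM at 0 h, 131 and 147 CPM in control and 78.6 and 77.5 CPM in CTCF-depleted libraries. MAD2L1, which encodes the checkpoint protein MAD2, had 78.2 and 78.7 CPM at 0 h, 31.2 and 28.6 CPM in control and 19.6 and 16.5 CPM in CTCF-depleted libraries. In none of these 3 genes did the groups overlap, and the steps between the group means were several times larger than the distance between replicates.

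MAD2L1 had the largest change of all 52 genes with differentiation (log2 fold change -1.39, SE 0.08) and over both steps (-2.12, SE 0.09), so that CTCF-depleted cells were 77.0% below 0 h. CENPE had the largest change of this role with CTCF depletion (-0.83, SE 0.06, adjusted p = 6.51e-17, edgeR's quasi-likelihood test with Benjamini-Hochberg adjustment), and CENPF was close to it (-0.82, SE 0.05). MAD2L1 changed by -0.73 (SE 0.10) with CTCF depletion and by -0.58, without a call, when the second CTCF-depleted library was left out. ESPL1, which encodes separase, the protease that opens cohesin at anaphase, had the smallest change with differentiation in this role, with 82.9 and 87.0 CPM at 0 h, 60.4 and 71.3 CPM in control and 41.8 and 38.4 CPM in CTCF-depleted libraries. Its log2 fold change was -0.37 (SE 0.08) and then -0.71 (SE 0.08), or -0.56 and not called without the second control library.

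The checkpoint kinases BUB1, BUB1B and TTK fell in both steps. BUB1 changed by -0.96 and -0.70 on the log2 scale, BUB1B by -0.77 and -0.75, and TTK, the MPS1 kinase at the head of the checkpoint, by -0.60 and -0.75. TTK lay at the threshold with differentiation and was not called without the second 0 h library (-0.55) or the first control library (-0.59). CDC20, the activator of the anaphase-promoting complex that the checkpoint holds in check, changed by -0.94 and -0.78, and PTTG1, or securin, which keeps separase inactive, by -1.13 and -0.77. UBE2C, the ubiquitin-conjugating enzyme of that complex, had -0.38 with differentiation, not called, and fell by 0.64 with CTCF depletion, the second value moving to -0.39 without the second CTCF-depleted library and to -0.53 without the second control library, neither of which was called. CENPA, the histone H3 variant that marks centromeres, changed by -0.73 and -0.75.

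Of the NDC80 complex, which grips the microtubule, 3 subunits are among these genes, and all 3 fell with CTCF depletion: NDC80 by 0.82, NUF2 by 0.82 and SPC25 by 0.61 on the log2 scale. With differentiation SPC25 fell by 0.77, while NDC80 (-0.53) and NUF2 (-0.46) were not called. SPC24, a further subunit outside the 52 genes, fell by 0.89 with differentiation and had -0.56 with CTCF depletion, not called. NUF2 had the largest replicate spread of the 52 genes, with 31.6 and 44.8 CPM in the control libraries, against 50.6 and 53.7 CPM at 0 h and 22.8 and 20.5 CPM in CTCF-depleted libraries. Without the second control library its log2 fold change with CTCF depletion was -0.51, not called, and that with differentiation was -0.72, which was called. NDC80 was called with differentiation without the second 0 h library (-0.62) or the first control library (-0.64). SPC25 lost its call with CTCF depletion on leaving out 5 of the 6 libraries, all but the second control library, with values from -0.50 to -0.60.

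The chromosomal passenger complex, which corrects faulty attachments at the inner centromere, did not change evenly among its subunits. Per kilobase of transcript, AURKB was at 77.5 CPM per kb at 0 h, 36.4 in control and 22.7 in CTCF-depleted cells. BIRC5, or survivin, was at 43.0, 18.8 and 12.3 CPM per kb, and CDCA8, or borealin, was at 35.6 CPM per kb at 0 h and 11.8 in CTCF-depleted cells. INCENP, the scaffold of the complex, started close to BIRC5 at 43.6 CPM per kb and was at 24.4 CPM per kb in CTCF-depleted cells. INCENP had 180 and 178 CPM at 0 h, 122 and 124 CPM in control and 98.1 and 102 CPM in CTCF-depleted libraries, and its change with CTCF depletion was the smallest of all 52 genes (log2 fold change -0.30, SE 0.06). The other 3 subunits fell in both steps, by 1.09, 1.20 and 0.83 and then by 0.68, 0.61 and 0.76 on the log2 scale for AURKB, BIRC5 and CDCA8. The second BIRC5 value was not called without the first or second 0 h library (-0.57 in both), the first control library (-0.50) or the second CTCF-depleted library (-0.53). The difference between INCENP and its partners was not tested.

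Among the kinesins and spindle genes, 7 of 11 fell with differentiation (median log2 fold change -0.65), 9 of 11 fell with CTCF depletion (median -0.64) and 10 of 11 fell over both steps (median -1.40). ASPM, which keeps spindle poles together, had 292 and 327 CPM at 0 h, 264 and 294 CPM in control and 158 and 161 CPM in CTCF-depleted libraries. It was the only one of the 52 genes in which 0 h and control libraries overlapped, and 86.7% of all genes tested had no such overlap. Both CTCF-depleted libraries of ASPM were far below its 0 h and control libraries (log2 fold change -0.15, SE 0.05, and then -0.81, SE 0.05). DLGAP5, which stabilizes microtubules at kinetochores, had the opposite balance, with 116 and 124 CPM at 0 h, 48.4 and 49.7 CPM in control and 33.7 and 30.9 CPM in CTCF-depleted libraries. It fell by 1.29 with differentiation and by 0.60 with CTCF depletion, and the second value was called only with all libraries or without the first CTCF-depleted one, being -0.51 to -0.59 without any other.

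CKAP2, a spindle microtubule protein, differed from the other genes of this role and had the same directions of change as ANLN, described below. CKAP2 had 144 and 151 CPM at 0 h, 171 and 185 CPM in control and 145 and 141 CPM in CTCF-depleted libraries. Control libraries were above 0 h and CTCF-depleted libraries were at the level of 0 h. The log2 fold changes were 0.27 (SE 0.05), -0.32 (SE 0.05) and, over both steps, -0.05 (SE 0.06), and none was called. Per kilobase of transcript CKAP2 was at 40.8 CPM per kb at 0 h and 39.5 CPM per kb in CTCF-depleted cells, while HMMR, a spindle assembly protein, went from 28.1 CPM per kb at 0 h to 20.5 CPM per kb in control and lower still in CTCF-depleted cells.

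Of the motors, KIF11, which pushes spindle poles apart, fell by 0.81 and then 0.64 on the log2 scale, and KIF2C, which takes microtubule ends apart, by 0.64 and then 0.75. KIF4A, the chromokinesin, was not called with differentiation (-0.45) and fell by 0.77 with CTCF depletion, and HMMR likewise (-0.46, then a fall by 0.77). TPX2, the activator of Aurora A on the spindle, fell by 0.88 and 0.64, GTSE1, which tunes KIF2C, by 0.82 and 0.68, and NUSAP1, a microtubule bundler, by 0.65 and 0.62. KIF15, a motor that backs up KIF11, fell by 1.00 with differentiation and missed the fold change threshold with CTCF depletion (-0.46, SE 0.07). For 4 of these genes the call with CTCF depletion needed particular libraries. NUSAP1 had -0.55 to -0.60 without any 1 library other than the second CTCF-depleted one; GTSE1 had -0.60 without the first CTCF-depleted library and -0.55 without the second control library; KIF11 had -0.59 and -0.57 without the same libraries; and TPX2 had -0.58 without the first control or the second CTCF-depleted library.

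Among the genes of condensin and the mitotic chromosome, 5 of 8 fell with differentiation (median log2 fold change -0.72), 5 of 8 fell with CTCF depletion (median -0.73) and 8 of 8 fell over both steps (median -1.38). MKI67, the Ki-67 antigen that coats mitotic chromosomes and is used as a proliferation marker, had the highest counts of the 52 genes. It had 1034 and 1059 CPM at 0 h, 869 and 930 CPM in control and 552 CPM in both CTCF-depleted libraries. The change with differentiation was small (log2 fold change -0.22, SE 0.05) and that with CTCF depletion was 38.7% (-0.71, SE 0.05, adjusted p = 2.98e-19, edgeR's quasi-likelihood test with Benjamini-Hochberg adjustment). TOP2A, topoisomerase II alpha, went from 466 CPM at 0 h to 298 CPM and 174 CPM in the group means and fell in both steps, by 0.65 and 0.78 on the log2 scale. CDCA2, which anchors a phosphatase to mitotic chromatin, fell by 0.84 and 0.75.

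Condensin I holds 5 subunits: the SMC2 and SMC4 ATPases, the kleisin NCAPH and the HEAT-repeat proteins NCAPD2 and NCAPG. NCAPG had 212 and 219 CPM at 0 h, 122 and 117 CPM in control and 67.4 and 68.8 CPM in CTCF-depleted libraries. NCAPH had 128 and 133 CPM at 0 h, 62.7 and 65.6 CPM in control and 38.0 and 36.2 CPM in CTCF-depleted libraries. SMC4 had 491 and 522 CPM at 0 h, 357 and 341 CPM in control and 275 and 264 CPM in CTCF-depleted libraries. All 3 had separate groups, and the changes were larger for NCAPG and NCAPH than for SMC4: NCAPG fell by 44.5% and then by 43.1% and NCAPH fell by 50.9% and then by 42.1%, while SMC4 had log2 fold changes of -0.54 (SE 0.05) and -0.37 (SE 0.05), neither called.

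SMC2 fell by 0.80 with differentiation and had -0.53 with CTCF depletion, not called, and NCAPD2 had -0.53 and -0.59, not called. NCAPD2 passed the threshold with CTCF depletion without the first CTCF-depleted library (-0.60), and SMC4 with differentiation without the first control library (-0.61). SMC2 and SMC4 are shared with condensin II, whose own subunits are not among the 52 genes. Of those 3, NCAPG2 (-0.68) and NCAPD3 (-0.62) fell with CTCF depletion and NCAPH2 (-0.16) was not called. In NCAPG, 33.7% of the exonic bases overlap exons of LCORL on the other strand, which had 321 to 499 counts per library, against 728 to 2917 for NCAPG. In SMC4, 19.0% overlap TRIM59, with 207 to 506 counts. According to the paper, libraries were made with a stranded total RNA kit. The strand setting of the counting is not given in the sources used here, and the part of these overlaps was not tested.

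Among the genes of cytokinesis, 3 of 7 fell and 1 rose with differentiation (median log2 fold change -0.43), against 22.9 and 25.4% of all genes tested. With CTCF depletion 4 of 7 fell (median -0.65), against 7.03%, and over both steps 6 of 7 fell (median -0.99), against 25.2%. ANLN encodes anillin, a scaffold of the contractile ring that also binds actin outside mitosis. It had 96.2 and 97.3 CPM at 0 h, 141 and 155 CPM in control and 84.3 and 84.9 CPM in CTCF-depleted libraries. Both control libraries were above 0 h and both CTCF-depleted libraries below it. ANLN rose by 0.61 with differentiation (SE 0.06, adjusted p = 2.81e-13), fell by 0.81 with CTCF depletion (SE 0.06, adjusted p = 2.37e-16; edgeR's quasi-likelihood test with Benjamini-Hochberg adjustment for both) and had -0.19 (SE 0.06) over both steps, not called. The rise lay at the threshold and was not called without either 0 h library (0.60 and 0.58), the second control library (0.54) or the first CTCF-depleted library (0.58), nor with total count scaling (0.49) or without the filter on low counts (0.58).

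KIF20A, the motor that carries the passenger complex to the midzone, had the largest change of this role over both steps. It had 111 and 107 CPM at 0 h, 43.3 and 45.9 CPM in control and 24.2 and 27.2 CPM in CTCF-depleted libraries, and fell by 1.29 and 0.80 on the log2 scale. PRC1, which bundles the microtubules of the midzone, had 129 and 113 CPM at 0 h, 107 and 104 CPM in control and 72.8 and 71.1 CPM in CTCF-depleted libraries. ECT2, which activates RhoA at the equator, had 93.8 and 106 CPM at 0 h, 57.2 and 59.5 CPM in control and 44.6 and 43.1 CPM in CTCF-depleted libraries. KIF20A and ECT2 lost more of their level with differentiation than with CTCF depletion and PRC1 less: ECT2 fell by 0.78 and then had -0.41 (SE 0.08), and PRC1 had -0.20 (SE 0.06) and -0.55 (SE 0.07), not called in either step. Exons of PRC1-AS1 cover 34.3% of PRC1 on the other strand, with 9 to 18 counts per library.

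KIF14, which works with PRC1 at the midzone, was close to its 0 h level in control cells (-0.09, SE 0.07) and fell by 0.69 with CTCF depletion. The 2 subunits of centralspindlin differed in level: KIF23 was at 23.7, 15.2 and 9.71 CPM per kb in the 3 groups and RACGAP1 at 33.5, 24.9 and 16.9 CPM per kb. KIF23 fell by 0.64 and 0.65 on the log2 scale, and RACGAP1 had -0.43 (SE 0.07) and -0.56 (SE 0.07), not called. KIF23 had -0.57 with differentiation without the first 0 h library, and -0.59 and -0.60 with CTCF depletion without the first CTCF-depleted and the first control library, none of which was called.

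The 52 genes lie on 21 chromosomes, with 7 on chromosome 1. To see what their promoters share, RefSeq promoter windows (GRCh38.p14, 250 bases before the start and 50 from it, 300 in all) were searched for 3 sets of letters on either strand: TTTGAA or TTCGAA for the CHR element, CCAAT for the NF-Y box, and TTTCCCGC, TTTGGCGC or TTTCGCGC for E2F sites. A window was at hand for 44 of the 52 genes, 53 windows in all. CHR letters were in 39 of these 53 windows (73.6%), compared to 16.4% of all 35116 windows of the table and 12.2% of the windows of genes tested. CCAAT was in 69.8%, compared to 34.6% of all windows, and both in 56.6%, compared to 6.38%. E2F letters were in 9.43%, compared to 2.74%. Other mitosis genes, described further below, had CHR letters in 49.3% of 73 windows, CCAAT in 64.4%, both in 37.0% and E2F letters in 9.59%. In the windows of the 44 genes, the first base of a CHR match lay at a median of 28 bases before the start. That of a CCAAT match lay at 79 bases. These shares describe letters, not bound sites.

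The 100 bases before the start of 10 of these promoters are shown, 5′ to 3′ on the strand of the gene, with CHR letters and CCAAT, each in either orientation, in capitals; where TTTGAA runs into ATTGG, as in MKI67, the matches overlap. Examples of each role were taken after the matches were known, with at most 20 of the 100 bases in any annotated exon. CCNB2 (chr15:59105046-59105145, plus strand), CDC20 (chr1:43358881-43358980, plus), ESPL1 (chr12:53268199-53268298, plus), KIF11 (chr10:92593030-92593129, plus), KIF4A (chrX:70290004-70290103, plus) and MKI67 (chr10:128126424-128126523, minus) have both kinds of match, with a CCAAT box upstream of CHR letters. INCENP (chr11:62123911-62124010, plus) has the same letters and the smallest change with CTCF depletion. NCAPG (chr4:17810879-17810978, plus) has CHR letters without CCAAT, KIF20A (chr5:138179012-138179111, plus) CCAAT without CHR, and CKAP2 (chr13:52455888-52455987, plus) neither.
CCNB2: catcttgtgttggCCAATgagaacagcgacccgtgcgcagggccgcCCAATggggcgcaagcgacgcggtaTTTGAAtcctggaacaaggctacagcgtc
CDC20: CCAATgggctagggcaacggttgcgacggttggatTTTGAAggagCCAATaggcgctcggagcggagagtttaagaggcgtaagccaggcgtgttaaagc
INCENP: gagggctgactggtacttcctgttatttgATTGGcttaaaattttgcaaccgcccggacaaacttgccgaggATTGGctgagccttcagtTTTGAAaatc
ESPL1: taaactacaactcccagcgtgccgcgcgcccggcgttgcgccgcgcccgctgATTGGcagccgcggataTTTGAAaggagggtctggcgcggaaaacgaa
KIF11: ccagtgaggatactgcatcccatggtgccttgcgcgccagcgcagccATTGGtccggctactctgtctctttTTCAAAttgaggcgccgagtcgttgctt
KIF4A: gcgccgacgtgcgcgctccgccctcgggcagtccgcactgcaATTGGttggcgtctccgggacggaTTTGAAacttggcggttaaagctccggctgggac
NCAPG: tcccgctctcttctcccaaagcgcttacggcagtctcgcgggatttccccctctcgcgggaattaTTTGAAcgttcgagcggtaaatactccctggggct
MKI67: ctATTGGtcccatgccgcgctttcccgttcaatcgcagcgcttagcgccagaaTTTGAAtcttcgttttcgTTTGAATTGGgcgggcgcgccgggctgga
KIF20A: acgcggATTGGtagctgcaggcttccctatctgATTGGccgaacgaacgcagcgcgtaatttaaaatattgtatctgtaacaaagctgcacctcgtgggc
CKAP2: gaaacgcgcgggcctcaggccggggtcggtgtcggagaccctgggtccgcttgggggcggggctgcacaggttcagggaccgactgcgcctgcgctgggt

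The change was set beside the letters as a description, with no test. The 36 genes with CHR letters in a window had a median of -0.70 in log2 fold change with CTCF depletion, and 27 of them fell; the 8 genes without had a median of -0.76, and 7 of them fell. With differentiation the medians were further apart, -0.66 for the genes with CHR letters and -1.03 for those without. Among the latter are AURKB, CCNB1, CENPE, KIF20A, KIF2C, NCAPH and PTTG1, which fell, and CKAP2, which was not called. By CCAAT, the median was -0.70 for the 33 genes with the letters and -0.75 for the 11 without. KIF20A and NCAPG, whose sequences lack 1 of the 2 kinds of match, changed by -0.80 and -0.81, and INCENP, which has both, by -0.30. CENPE, KIF2C and CKAP2 had neither kind of match in their windows and changed by -0.83, -0.75 and -0.32 with CTCF depletion.

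Further genes of the same pathways, listed beside the 52, were read from the same fit. Of 74 other mitosis genes, 39 fell and 2 rose with differentiation (median log2 fold change -0.67), against 22.9 and 25.4% of all genes tested. With CTCF depletion 30 fell and 0 rose (median -0.56), against 7.03 and 5.41%. All 74 had values below 0 with CTCF depletion, compared to 7992 of all 14758 genes tested. In edgeR and in DESeq2 0 of the 74 had a higher level at an unadjusted p below 0.05. Among the 36 kinetochore and centromere genes of this set 12 fell with CTCF depletion (median -0.50), most of all CENPW (-0.98) and HJURP, the chaperone of CENPA (-0.88), whereas CENPP (-0.03) and SGOL2 (-0.06) had values near 0. Among 14 kinases and entry regulators 5 fell (median -0.54), with PKMYT1 (-0.87) and CCNA2, cyclin A2 (-0.85), at the low end and CDC25B (-0.31) at the other. Among 21 spindle and cytokinesis genes 11 fell (median -0.65), with STIL (-0.88) and ARHGAP11A (-0.87) at the low end and TUBG1 (-0.13) at the other. With differentiation, NDE1 (1.85), a dynein partner that also serves outside mitosis, had the highest value of the set.

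The anaphase-promoting complex itself has subunits that are needed outside mitosis as well. Of 17 genes, 5 fell with differentiation (median log2 fold change -0.28), where 22.9% of all genes were lower, and 0 were called with CTCF depletion by edgeR or by DESeq2, where 7.03% of all genes were lower. Both counts are near the share over all genes, and the difference from the 52 genes was not tested. The median of that comparison was -0.06, from -0.30 for CDC23 to 0.33 for CDC16. At an unadjusted p below 0.05, 6 were lower and 2 higher in edgeR and 4 lower and 1 higher in DESeq2. Of the 13 genes of the MuvB complex, B-MYB and the pocket proteins, 4 fell with CTCF depletion (median -0.21), with LIN9 (-0.91) and MYBL2, which encodes B-MYB (-0.80), at the low end. With differentiation 2 of the 13 fell, against 22.9% of all genes, and 1 rose, against 25.4%, with values from -2.52 to 0.89. MYBL2 fell by 2.13, and RBL2, the pocket protein p130 of resting cells, rose by 0.89.

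Genes of DNA replication, which belong to S phase, shifted the other way round in size. Of 30 such genes, 29 fell with differentiation, with a median log2 fold change of -1.23, against -0.67 for the 52 mitosis genes. With CTCF depletion 11 fell, with a median of -0.51, against -0.70. Of all genes tested, 22.9 and 7.03% fell in these 2 comparisons. GINS2 (-2.14) and CDC6 (-1.83) led the first comparison and CDC45 (-0.88) and TK1 (-0.80) the other. Their promoters held CHR letters in 6.06% of 33 windows, CCAAT in 66.7% and E2F letters in 42.4%. These lists have no gene in common with the 52, and the difference between the lists was not tested.

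**Figure D3:**
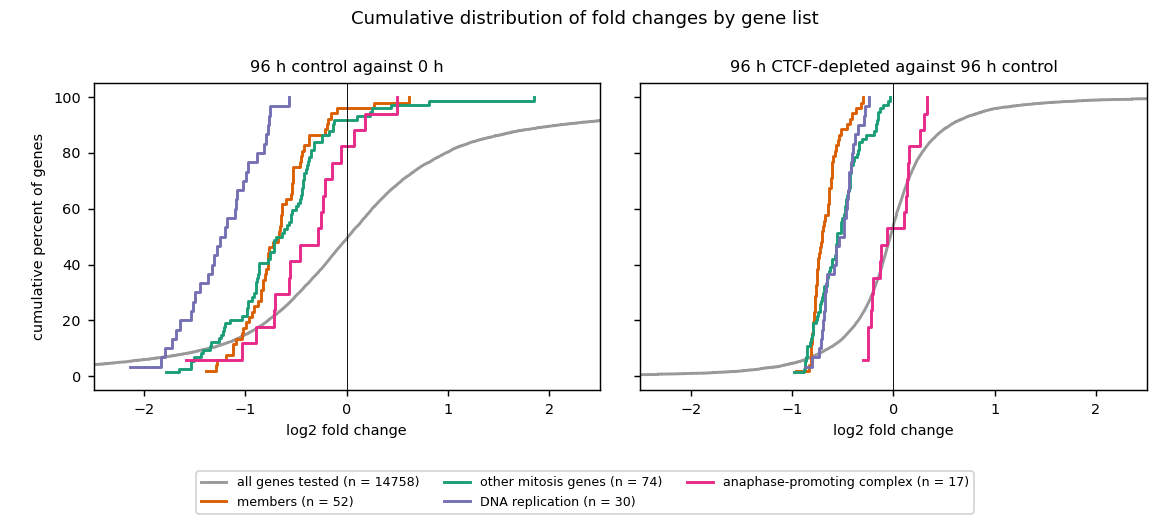
Cumulative percent of genes (y axis) up to a given log2 fold change (x axis) for all genes tested, the 52 genes ("members"), other mitosis genes, DNA replication genes and the anaphase-promoting complex. With CTCF depletion (right) the curve of the 52 genes rises steeply around its median of -0.70, and that of the anaphase-promoting complex close to all genes.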

How the data were processed

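The members and the lists beside them were chosen with earlier results of these data known. The authors aligned reads of ribosomal RNA-depleted libraries to hg38 with STAR 2.6.1d, counted them per gene with featureCounts 2.0.6 and deposited raw counts; the annotation release is not given in the sources used here. The tests were run with edgeR 4.0.16 under R 4.3.3 (filterByExpr, TMM, quasi-likelihood, condition as the only term, all 6 libraries), with Benjamini-Hochberg adjustment over 14758 genes, which hold 99.9% of the counts. With 2 libraries a group the smallest exact two-sided permutation p is 0.333, so that p-values rest on the spread shared across genes (common biological coefficient of variation 3.96%, prior degrees of freedom 51.7). DESeq2 1.42.0 was an alternative. On simulated depletion data over 14758 genes both tools recovered 200 of 200 changed genes with 0 false calls. The changed genes were drawn from the more abundant ones and moved by 1 on the log2 scale, up or down, with the fitted spread. This run therefore does not show how well changes near the threshold of 0.6 are called. Chi-square per degree of freedom between replicates was 2.76, 1.92 and 1.73. Each standard error was derived from the F statistic and its fold change. Values in every library are given, per role, for the gene with the most CPM at 0 h and for the lowest and highest log2 fold change in the first 2 comparisons; other genes with such values were chosen after their values were seen. Up to 2 genes at each end are named per further list. Positions and transcript lengths are from GENCODE release 44. Near copies such as PTTG2 and KIF4B had at most 21 counts in any library, except AURKAPS1 with 51 to 94. Of the 52 genes, 14 overlap exons of another counted gene. For 12 of these such a gene lies on the opposite strand, which unstranded counting could not separate, also in libraries from a stranded kit. For 3 (BUB1B, CENPA and NUSAP1, the last with both kinds) it lies on the same strand, where strand does not separate them. Plots and summaries used Python 3.11.15, pandas 2.3.3, numpy 2.4.6 and matplotlib 3.10.9.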

Additional observations from a re-analysis of the deposited data

Results flagged for a closer look

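ANLN was the only one of the 52 genes whose 96 h groups lay on opposite sides of 0 h without overlap: its mean ± SD (n = 2) was 96.8 ± 0.734 CPM at 0 h, 148 ± 10.4 CPM in control and, below 0 h, 84.6 ± 0.478 CPM with CTCF depletion. The log2 fold change between the 96 h groups was -0.81 (SE 0.06, adjusted p = 2.37e-16, edgeR's quasi-likelihood test with Benjamini-Hochberg adjustment), which is itself the test of their difference, since both are compared to the same 0 h libraries. Over all 13 alternatives to the fit it ranged from -0.85 to -0.70.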

How the results depend on the processing

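With CTCF depletion, 33 to 40 of the 52 genes fell in all alternatives at these thresholds: 37 with DESeq2, with RLE scaling or with at least 10 counts in every library, 35 with total count scaling, without a filter or with the 4 libraries compared only (BIRC5, DLGAP5 and SPC25 lost the call in all of these), and 33 to 36 on leaving out 1 library. With no fold threshold and an adjusted p below 0.05 it was 52, and at a log2 fold change above 1 it was 0; 27 of the 40 were called whichever library was left out. With differentiation 31 to 39 fell, 48 at 0.05 without a fold threshold and 9 at a log2 fold change above 1. The count that rose with differentiation was 0 to 1 on leaving out 1 library, 0 with total count scaling, without a filter or at a log2 fold change above 1, and 2 at 0.05. Over both steps 50 fell in every fit, 51 at 0.05 and 42 above 1. Total count scaling shifted the median of all genes by -0.12 with differentiation, and CCNB2, FOXM1, INCENP, NCAPD2, NDC80 and SMC4 were called lower under it. CKAP2 over both steps was -0.067 to 0.0057 on leaving out 1 library and above 0 without the second CTCF-depleted library only. The replicate numbers did not pair the libraries (correlations of -0.0194, 0.0109 and -0.0294), and with the replicate block 32, 40 and 50 genes fell in the 3 comparisons, TTK losing its call with differentiation and no other call of the 52 genes changing. Depth did not keep any of the 52 genes from being tested. With a library left out of a pair, the lone library was assumed to vary like the other groups.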
